A study of Mus musculus with 8 samples.

Results

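The genes described here encode the eukaryotic translation initiation factors and the proteins that carry their names. They were chosen by name, as the protein-coding genes of the GENCODE M1 annotation whose symbol starts with Eif and a digit between 1 and 6, which gave 58 of 22380 protein-coding genes. Their promoters were searched for binding sites of the transcription factors E2f3 and Myc in mouse intestine, as called from ChIP-exo-seq, in which an exonuclease trims precipitated DNA up to the crosslinked protein. The 4 Eif2c genes among them belong to the Argonaute proteins of RNA silencing, which are not initiation factors, and several others encode kinases or binding proteins that act on the factors.

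The libraries came from mice of a mixed C57BL/6, 129 and FVB/N background. Crypt cells and villus cells of mice in which Rb had been deleted by an inducible intestinal Cre (Ah-cre) were compared with crypt and villus cells of mice labelled control in one label and wild type in another. Whether the control mice carried or had been given an induced Cre, how many mice were pooled, and their age are not stated in the labels. Each cell type and genotype was precipitated with an antibody against E2f3 and with one against Myc, which gave 8 libraries in 8 groups of 1. The lists of sites numbered 27396 and 32666 for E2f3 in Rb-deficient and control crypt, and 14843 and 7405 in Rb-deficient and control villus. For Myc they numbered 31397 and 159181 in Rb-deficient and control crypt, and 4119 and 7223 in Rb-deficient and control villus. With 1 library per group no difference has a replicate check, no p-value is given, and intervals (exact 95% Clopper-Pearson) cover counting error only. Sequencing depth is unknown. Lists of sites measure neither RNA nor the deletion of Rb1, so the cell type and genotype labels could not be checked.

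Translation initiation brings the initiator tRNA, the small ribosomal subunit and the messenger RNA together. eIF1, eIF1A, eIF2 and eIF3 load the small subunit, eIF2B recharges eIF2 with GTP, and kinases that phosphorylate the eIF2 alpha subunit slow this recycling under stress. The eIF4 factors recognise the cap of the messenger and unwind it, and eIF5 and eIF5B act when the start codon has been found and the large subunit joins. E2f3 belongs to the E2F factors that Rb restrains, and Myc is a driver of cell growth that binds DNA with Max. Genes of protein synthesis are textbook targets of Myc.

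The sequences below show what lay under the best site of the members with a known motif at the site in several libraries and of the highest-scored member of each complex. The best site is the site with the highest score in the authors' list among those within 1 kb of a start site of the gene. The E2F motif was searched as TTNNCGC and its shorter core as NNCGC, with each N a C or a G. The E-box, the element of Myc and Max, was searched as CACGTG. All were searched on both strands. The core is contained in the motif. All sequences are the plus strand of NCBIM37 (mm9), 5' to 3', centred on the site.
Capitals mark the full E2F motif in these:
Eif1ad (E2f3, chr19:5366939-5366967): acgaagaggggGCGGGAAatccggaggac
Eif2s1 (E2f3, chr12:79963251-79963279): cccgttcttgcGCGGGAAgtgtctggacc
Eif2s2 (E2f3, chr2:154717961-154717989): taaggcctcgaGCGGGAAacgggagcgag
Eif4enif1 (E2f3, chr11:3102110-3102138): cagacaaaaagGCGCGAAaaatcgggccg
Capitals mark the E2F core in these:
Eif2b2 (E2f3, chr12:86560162-86560282): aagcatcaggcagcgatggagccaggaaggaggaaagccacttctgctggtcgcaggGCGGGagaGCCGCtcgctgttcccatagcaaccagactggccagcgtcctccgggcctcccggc
Eif2ak2 (E2f3, chr17:79281980-79282008): tgtaccccaGCGCGGGagccaaggtccgg
Eif3k (E2f3, chr7:29767047-29767075): GGCGCCaggagGCGGGctaagcttttccc
Eif4ebp2 (E2f3, chr10:60915540-60915568): agcggtcgaagGCGGGagcaaggggtagt
Eif6 (E2f3, chr2:155652462-155652490): ccgggaGCGCGCaggagccgggcggagct
Capitals mark the E-box in these:
Eif2c2 (Myc, chr15:73014591-73014619): gggaaatggagcCACGTGcctggcgggag
Eif4g2 (Myc, chr7:118221297-118221417): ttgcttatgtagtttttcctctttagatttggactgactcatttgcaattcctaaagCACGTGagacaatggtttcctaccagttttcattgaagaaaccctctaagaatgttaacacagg
The Eif4enif1 window is that of the Rb-deficient villus site, and the others are those of Rb-deficient crypt. At Eif4ebp2 the full motif lies within 50 bp of the site but outside the stretch printed. Scores run from 2 to a cap of 999; no source used here gives their meaning or any scaling between libraries, so a difference in score between libraries is not read as a difference in binding.

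E2f3 was found at 53.4% of the initiation factor genes in at least 1 library, and most often in crypts. Of the 58 genes, 31 had an E2f3 promoter site in at least 1 library, against 25.3% of all protein-coding genes, and 6 had one in all 4, against 3.64%. In Rb-deficient crypt 27 had one, 46.6% (33.3% to 60.1%), against 21.1% of all genes. In control crypt 20 had one, 34.5% (22.5% to 48.1%), against 15.7%. In Rb-deficient villus 13 had one, 22.4% (12.5% to 35.3%), against 13.0%, and in control villus 7, 12.1% (4.99% to 23.3%), against 4.83%.

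The background of all genes includes many with CpG-poor promoters, and few of the initiation factor genes are of that kind. A start site with CpG observed over expected of at least 0.6 and at least 50% GC in the 500 bp to each side was present in 53 of the 58 members, 91.4%, and in 48.9% of all genes. Members had a median of 3 start sites and all genes a median of 2, and the part of that difference in these shares was not tested. Among CpG-rich genes alone, 47.2% of members and 35.9% of all such genes had an E2f3 site in Rb-deficient crypt, and 35.8% and 26% in control crypt. In Rb-deficient villus the shares were 22.6% and 22.5%, and in control villus 13.2% and 8.37%. The gap between members and background was thus narrower among genes with this kind of promoter, and in Rb-deficient villus there was almost none.

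**Figure D1:**
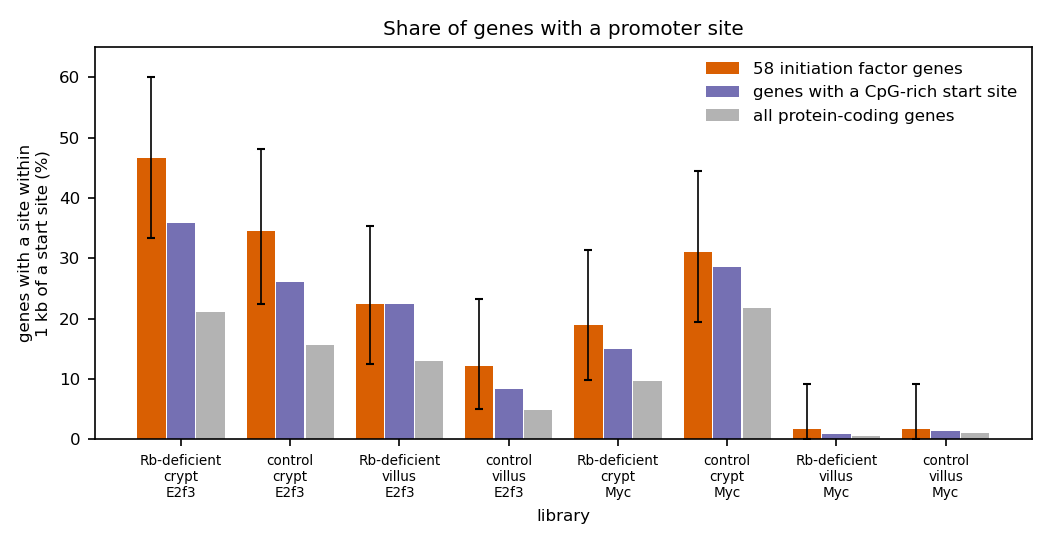
Share of genes (%) with a site at most 1 kb from a start in each of the 8 libraries, for the 58 initiation factor genes (orange, with exact 95% intervals of counting error), for genes with a CpG-rich start site (purple) and for all protein-coding genes (grey). In Rb-deficient villus E2f3 the orange and purple bars are at 22.4% and 22.5%.

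Among the eIF1 and eIF1A genes, 2 of 5 had E2f3 sites, and both had them in all 4 E2f3 libraries. They were Eif1, which guards the choice of the start codon, and Eif1ad, named for a domain shared with eIF1A. At Eif1ad the best E2f3 site scored 61.67 in Rb-deficient crypt, 30.82 in control crypt, 18.32 in Rb-deficient villus and 16.37 in control villus. The 2 best crypt sites lay at the same base in the 5' UTR, on the motif shown above. The best villus sites lay 198 bp and 753 bp upstream of the start. Each villus list also held 1 site inside the gene, and its site nearest the start was 140 bp away, the distance of the crypt site. Each of the best sites also lay within 1 kb of a start of Banf1, the neighbouring gene, and cannot be assigned to Eif1ad alone. At Eif1 the site scored 16.69 and 19.23 in Rb-deficient and control crypt and 4.69 and 5.48 in Rb-deficient and control villus, all within 2 bp of each other in an exon of a non-coding transcript.

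Of eIF2 and its relatives, 4 of 6 genes had an E2f3 site in some library. Eif2s1, which encodes the alpha subunit that stress kinases phosphorylate, had one in all 4. It lay at the same base each time, chr12:79963265, in an intron 459 bp downstream of the nearest start and on the E2F motif. Its scores were 17.58 and 34.77 in Rb-deficient and control crypt, and 5.21 and 3.97 in Rb-deficient and control villus. The site was also within 1 kb of a start of Atp6v1d. At Eif2s2, the beta subunit gene, the crypt libraries shared the 5' UTR site shown above (4 in Rb-deficient and 14.85 in control crypt), whereas the Rb-deficient villus site (6.32) lay 697 bp away, and control villus had none. Eif2s3x, the X-linked gamma subunit gene, and Eif2d, which encodes a carrier of tRNA to the ribosome, had theirs in Rb-deficient crypt alone, with scores of 12.1 and 7.99. Eif2a and the Y-linked Eif2s3y had no site in any library.

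Of the 5 eIF2B genes, Eif2b2 (the beta subunit) had a site in all 4 E2f3 libraries, at chr12:86560222 and 209 bp upstream of the start each time. It scored 19.86 and 24.4 in Rb-deficient and control crypt and 5.99 and 4.53 in Rb-deficient and control villus. The centre of the site holds GCGGGA, which has the core and not the full motif. Eif2b4 (delta) had low-scored sites in Rb-deficient crypt (3.23) and Rb-deficient villus (2.62), shared with Snx17, and Eif2b3 (gamma) a site in control crypt (6.39). Eif2b1 and Eif2b5 had none; Eif2b5 encodes the catalytic epsilon subunit.

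Among the kinases of eIF2 alpha, Eif2ak2, the kinase PKR that senses double-stranded RNA, had its site at chr17:79281994, 81 bp upstream of the start, in 3 libraries. Its scores were 12.57 and 19.71 in Rb-deficient and control crypt and 6.93 in Rb-deficient villus, and control villus had none. Eif2ak1, the heme-regulated kinase, and Eif2ak4, the kinase GCN2 of amino acid starvation, had one in Rb-deficient crypt only (12.91 and 3.02). Eif2ak3, the kinase PERK of the endoplasmic reticulum, had no E2f3 site. Of the Argonaute genes only Eif2c2, which encodes the slicing enzyme Ago2, had E2f3 sites, with scores of 4.51 and 8.26 in Rb-deficient and control crypt and 7.9 in Rb-deficient villus. The best Rb-deficient crypt site lay 1112 bp from the best sites of the others, which were at 1 base. Control crypt held 2 sites within 1 kb of the start.

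The largest complex, eIF3, which binds the small subunit and holds the other factors on it, had an E2f3 site at 7 of its 13 genes. Only Eif3k and Eif3f had one in more than 1 library. Rb-deficient crypt held 5 of the 7, control crypt 3, Rb-deficient villus 1 and control villus 1. Eif3k was the best supported, at 178 bp upstream of its start in Rb-deficient crypt (37.26) and Rb-deficient villus (13.9), and 20 bp from there in control crypt (14.86). Its site lay within 1 kb of a start of Map4k1 as well. Eif3f had sites 1 bp apart in Rb-deficient and control crypt (13.03 and 10.59). Eif3d (8.56), Eif3e (3.3) and Eif3m (2.01, near the lowest score in the list) had one in Rb-deficient crypt alone, Eif3c (3.79) in control crypt alone and Eif3b (6.15) in control villus alone. Eif3a, Eif3g, Eif3h, Eif3i, Eif3j and Eif3l had no E2f3 promoter site.

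Of the 12 eIF4 genes, 7 had an E2f3 site. Eif4a3, a helicase of the exon junction complex, had the same base in 3 libraries, with scores of 7.29 and 6.7 in Rb-deficient and control crypt and 4.41 in Rb-deficient villus. The helicase cofactor genes Eif4b (8.82 and 5.01 in Rb-deficient and control crypt) and Eif4h (5.83 and 8.63) had sites in both crypt libraries, 246 bp and 480 bp apart. The helicase gene Eif4a2 was bound in Rb-deficient crypt only (7.61) and Eif4a1 in control crypt only (8.06, near the start of a non-coding transcript). Eif4g1, the scaffold of the cap-binding complex, had a site in each crypt (7.18 in Rb-deficient and 12.83 in control), but in an intron near the start of a non-coding transcript. Eif4e, which encodes the cap-binding protein itself, had no promoter site in any of the 8 libraries, nor had Eif4e1b, Eif4e2 or Eif4e3. Among the genes of the proteins that bind eIF4E, Eif4ebp2, a repressor of cap-dependent translation, had the same base in 3 libraries (2.53 and 5.31 in Rb-deficient and control crypt, 5.19 in Rb-deficient villus), and Eif4ebp1 and Eif4ebp3 had none.

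Of the late factors, Eif6, which keeps the large ribosomal subunit from joining too soon, had a 5' UTR site in both crypts, 1 bp apart, with scores of 20.27 in Rb-deficient and 35.58 in control crypt. Eif5a, the factor that carries hypusine, had a site in Rb-deficient crypt (8.55). Eif5, Eif5a2 and Eif5b had no E2f3 site. The remaining genes without one were Eif1a, Eif1ax, Eif1b, Eif2c1, Eif2c3, Eif2c4 and Eif4g3, so 27 of the 58 members had no E2f3 promoter site.

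**Figure D2:**
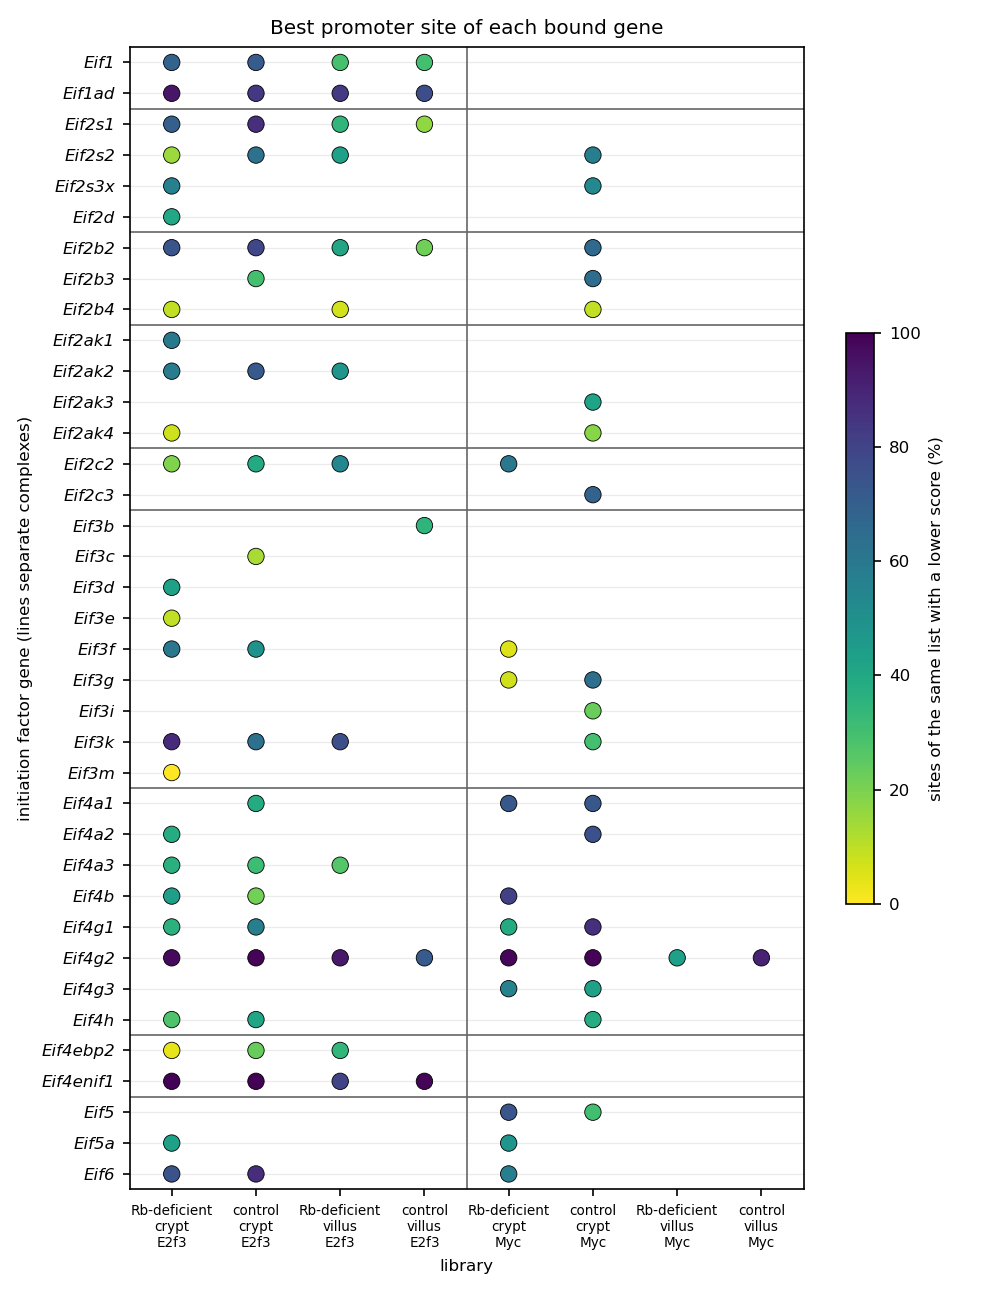
Best promoter site of the 37 initiation factor genes with a site in at least 1 of the 8 libraries (columns); rows are genes and horizontal lines separate the complexes. Colour gives the share of sites of the same list with a lower score (%), and a blank means no site at most 1 kb from a start; the 21 genes with no site in any library are left out. Eif4g2 is filled in all 8 columns.

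In both crypt libraries the highest-scored E2f3 sites of the family were those of Eif4enif1 and Eif4g2. Eif4enif1, which encodes the eIF4E transporter 4E-T, had an E2f3 score at the cap of 999 in Rb-deficient crypt, 217.81 in control crypt, 16.01 in Rb-deficient villus and 126.87 in control villus. These placed it among the highest 0.456%, 0.502%, 20.3% and 1.01% of sites in the same order. The sites lay 246 to 271 bp upstream of the start. Only the Rb-deficient villus site sat on the E2F motif, and those of the other libraries lay 22 or 25 bp from that site. No Myc library had a site within 1 kb of this start. Between 1 kb and 10 kb upstream, however, all 8 lists held sites, from 1 to 12 per list, where an average stretch of that length held 0.0134 to 0.539. The part of this crowding in the scores at Eif4enif1 was not tested.

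Eif4g2 encodes a relative of eIF4G that lacks the part that binds eIF4E. It was the only member with a site within 1 kb of a start in all 8 libraries, as had 0.295% of all genes. Its Myc site scored 83.23 and 999 in Rb-deficient and control crypt, and 6.31 and 26.77 in Rb-deficient and control villus. Its E2f3 site scored 102.52 and 165.54 in Rb-deficient and control crypt, and 35.44 and 13.79 in Rb-deficient and control villus. Both antibodies gave the same place, since the 8 sites spanned 59 bp from 118221320 to 118221379 on chromosome 7. This place is in an intron, more than 5 kb into the gene at 5165 to 5224 bp from its outermost start, and it counts as promoter only because a retained-intron transcript starts 55 to 114 bp away. The nearest start of a coding transcript was 3557 to 3616 bp off; control crypt E2f3 and both crypt Myc libraries had a further site, scored no higher, within 1 kb of a coding start. An E-box, from 118221354 to 118221359, lay among the sites, and no E2F core lay within 5 bp of any of them. Eif4g1 resembled it: its E2f3 and Myc sites in both crypts lay within 21 bp of each other, in an intron, 17 to 38 bp from the start of a retained-intron transcript. Inside the gene but more than 1 kb from any start, Eif2c2 and Eif2b3 also had sites in all 8 lists. At Eif2c2 the highest-scored of these lay between 72989782 and 72989874 on chromosome 15 in each list. No share over all genes stands beside such sites.

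**Figure D3:**
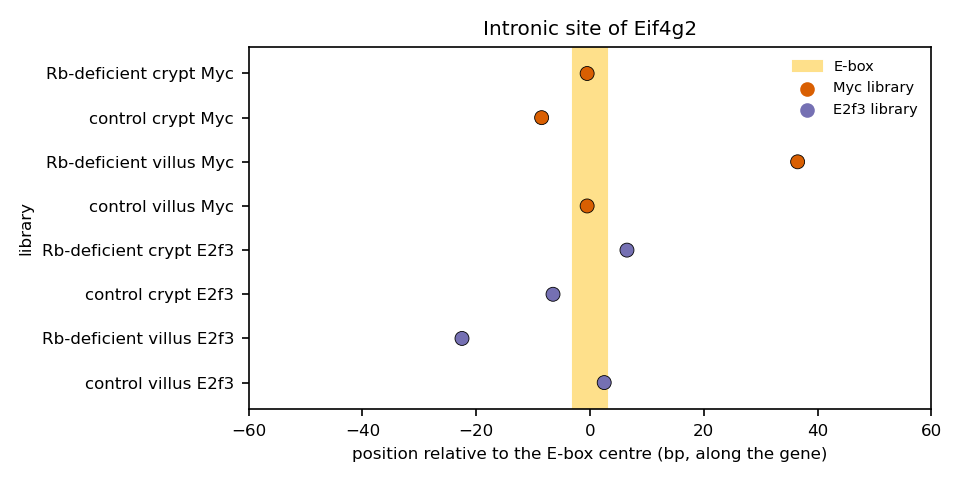
Position of the Eif4g2 site in each library (points; orange for Myc, purple for E2f3) in bp from the centre of the E-box, along the direction of the gene; the shaded band is the E-box. In 6 of the 8 libraries the site lay within 10 bp of the centre, and the Rb-deficient villus sites lay 36.5 bp (Myc) and -22.5 bp (E2f3) from it.

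The comparison of genotypes asks whether E2f3 gained or lost initiation factor promoters without Rb. In crypts, 17 members had a site in both genotypes (12.8% of all genes), 10 in Rb-deficient crypt only (8.31%) and 3 in control crypt only (2.91%). In villi, 6 members had a site in both (4.01%), 7 in Rb-deficient villus only (8.95%) and 1, Eif3b, in control villus only (0.818%). The highest scores among those only in Rb-deficient crypt were those of Eif2ak1 (12.91), Eif2s3x (12.1), Eif3d (8.56), Eif5a (8.55) and Eif2d (7.99), and the other 5 were Eif4a2, Eif3e, Eif2b4, Eif2ak4 and Eif3m. All 10 scored below 13 in Rb-deficient crypt, as did 8 of the 17 members found in both crypts. Those only in control crypt were Eif4a1, Eif2b3 and Eif3c. Those only in Rb-deficient villus were led by Eif3k (13.9), Eif2c2 (7.9), Eif2ak2 (6.93), Eif2s2 (6.32) and Eif4ebp2 (5.19), followed by Eif4a3 and Eif2b4.

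Of the members present in either library, those in the Rb-deficient one only made up 33.3% in crypt, against 34.6% among all such genes, and 50% in villus, against 65%. In villus these shares stand for 7 of 14 members and 2004 of 3084 genes, and their difference was not tested. All 7 members found in Rb-deficient villus only also had a site in Rb-deficient crypt (82.9% of the 2004 genes), and 6 of them had one in control crypt (59.6%). The 13 members of Rb-deficient villus were all among the 27 of Rb-deficient crypt.

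The counts were also taken with lists of equal length, since the deposited lists differ in length; in crypt the control list is the longer one and holds fewer members. When only the 7405 highest-scored sites of each E2f3 list were used, as many as the control villus list holds, the members with a site numbered 6 in Rb-deficient and 6 in control crypt, and 5 in Rb-deficient and 7 in control villus. All protein-coding genes then had a site in 7.82% and 5.14% of cases in crypt, and in 7.33% and 4.83% in villus, in the same order. All genes thus kept a higher share in the Rb-deficient libraries at equal length. The members did not, but this contrast rests on at most 7 of them per library and was not tested. At equal length 1 member was left in Rb-deficient crypt only and 2 in Rb-deficient villus only, against 1 in control crypt only and 4 in control villus only.

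**Figure D4:**
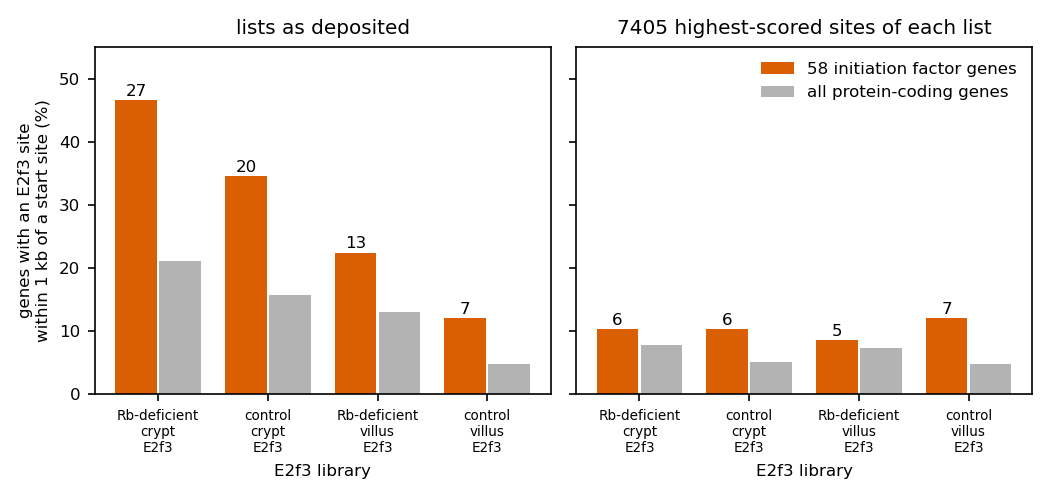
Share of genes (%) with an E2f3 site at most 1 kb from a start, in the lists as deposited (left) and with the 7405 highest-scored sites of each list (right), for the 58 initiation factor genes (orange, their number above the bar) and all protein-coding genes (grey). The members number 27, 20, 13 and 7 on the left and 6, 6, 5 and 7 on the right.

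An E2f3 site in villus and not in crypt of the same genotype was rare among members and among all genes alike. In Rb-deficient mice 13 members had an E2f3 site in both (11.3% of all genes), 14 in crypt only (9.82%) and 0 in villus only (1.64%). In control mice 6 had one in both (4.37%), 14 in crypt only (11.4%) and 1 in villus only (0.456%), again Eif3b. The members in control crypt only with the highest scores were Eif6 (35.58), Eif2ak2 (19.71), Eif3k (14.86), Eif2s2 (14.85) and Eif4g1 (12.83). At equal list length 2 members were in Rb-deficient crypt only and 1 in control crypt only, against 1 and 2 in the villus of the same genotype only.

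Where a member had E2f3 sites in several libraries, they were mostly the same site. Of 18 members with a site in 2 or more E2f3 libraries, the best sites lay at a single base in 5 (Eif2ak2, Eif2b2, Eif2s1, Eif4a3 and Eif4ebp2) and within 25 bp in 11. In 4 (Eif1ad, Eif2c2, Eif2s2 and Eif4h) they were more than 250 bp apart. Among the 17 members of both crypts, the best sites of the genotypes lay within 250 bp in 15 and at one base in 8, where all genes of both crypts gave 92.0% and 49.2%. In villi it was 5 of 6 and 3 of 6, against 91.1% and 56.9%.

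The E2F core lay close to most of these sites and the full motif near fewer of them. In Rb-deficient crypt the full motif lay within 50 bp of 7 of 27 best sites, 25.9% (11.1% to 46.3%), against 32.5% over the best promoter sites of all genes. Those 7 were Eif1ad, Eif2s1, Eif2s2, Eif2s3x, Eif3d, Eif4ebp2 and Eif4enif1. In control crypt it was 8 of 20 (36.9% over all genes), in Rb-deficient villus 3 of 13 (37.2%) and in control villus 2 of 7 (56.4%). The core lay within 5 bp of the site in 22 of 27, 14 of 20, 12 of 13 and 4 of 7 cases in the same order, against 78.9%, 63.6%, 78.4% and 71.4% over all genes. In windows of the same length centred on all start sites, the full motif was present in 4.48% (101 bp) and the core in 9.93% (11 bp). Among all E2f3 sites with the full motif within 20 bp, the motif was centred on the site's own base in 82.1% to 91.6%, by library and strand. The part of the site calling in these shares was not tested. For motif and core, the members' exact intervals include the value over all genes in each of these libraries.

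An E-box within 50 bp of the best E2f3 site was found at 4 of 27 members in Rb-deficient crypt (Eif1, Eif2c2, Eif4g2 and Eif5a), 14.8% (4.19% to 33.7%), against 3.52% over all genes. In control crypt it was 2 of 20 (2.65% over all genes), in Rb-deficient villus 2 of 13 (3.88%), and in control villus 3 of 7 (3.19%). Eif1 and Eif4g2 were among them in all 4 libraries, Eif3b was the other in control villus, and Eif1 and Eif3b had no Myc promoter site in any library.

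Within 1 kb of a start, Myc was found at fewer members than E2f3 in each of the 4 kinds of cells. In control crypt this turned round within 5 kb, where 39 members had a Myc site (57.1% of all genes) and 24 an E2f3 site (28.2%). Over all genes the control crypt share was the higher for Myc already within 1 kb. In Rb-deficient crypt 11 members had a Myc promoter site, 19.0% (9.87% to 31.4%), against 9.59% of all genes. In control crypt 18 had one, 31.0% (19.5% to 44.5%), against 21.7%. In each villus library Eif4g2 was the single member, 1.72% (0.0436% to 9.24%), against 0.603% of all genes in Rb-deficient and 1.04% in control villus. Among CpG-rich genes the shares were 20.8% of members and 15.0% of all in Rb-deficient crypt, and 34.0% and 28.5% in control crypt. In all, 23 members had a Myc site in some library (24.9% of all genes).

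The eIF4 genes supplied 5 of the 11 members in Rb-deficient crypt and 6 of the 18 in control crypt. Annotated start sites numbered 20 at Eif4g1, 19 at Eif4a2, 14 at Eif4g2, 11 at Eif4a1 and Eif4g3, and 2 at Eif4b and Eif4h. The median member had 3, and the part of this difference in the Myc counts was not tested. Besides Eif4g2, the 4 highest in Rb-deficient crypt were Eif4b (22.82), in an intron 751 bp downstream of the start, Eif5 (18), which makes eIF2 hydrolyse its GTP, Eif4a1 (17.4) and Eif2c2 (12.41). Eif6 (11.55), Eif4g3 (11.1), Eif5a (9.16), Eif4g1 (7.46), Eif3g (2.97) and Eif3f (2.73) completed the list. In control crypt the highest after Eif4g2 were Eif4g1 (54.27), Eif4a2 (30.72), Eif4a1 (27.15) and Eif2c3 (23.19). The others there were Eif2b2, Eif2b3, Eif3g, Eif2s2, Eif2s3x, Eif4g3, Eif2ak3, Eif4h, Eif5, Eif3k, Eif3i, Eif2ak4 and Eif2b4, with scores of 3.29 to 21.18. No eIF1 gene and no gene of an eIF4E-binding protein had a Myc promoter site in any library.

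The Myc members of the genotypes overlapped in part. In crypts 6 members had a site in both (6.4% of all genes), 5 in Rb-deficient crypt only (3.19%) and 12 in control crypt only (15.3%). Those only in Rb-deficient crypt were Eif4b, Eif2c2, Eif6, Eif5a and Eif3f. The highest only in control crypt were Eif4a2, Eif2c3, Eif2b2, Eif2b3 and Eif2s2. The best sites of the 6 common members lay within 250 bp of each other in 4, against 80.9% over all genes, and none was at the same base. In villi Eif4g2 was common (0.411%) and no member was in 1 genotype only (0.192% of all genes in Rb-deficient and 0.63% in control villus). Between crypt and villus, 1 member was common and 10 were in crypt only in Rb-deficient mice (0.563% and 9.03% of all genes), and 1 was common and 17 were in crypt only in control mice (1.03% and 20.6%). No member was in villus only (0.0402% of all genes in Rb-deficient and 0.00894% in control mice). With 4119 sites from each Myc list, Eif4g2 was the single member in all 4 libraries, where 0.541% to 1.18% of all genes had a site.

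Best Myc sites lay near a start more often in Rb-deficient than in control crypt, among members and among all genes, a difference that was not tested. In Rb-deficient crypt 9 of 11 best sites lay within 300 bp of a start site (48.1% over all genes), and in control crypt 9 of 18 (29.6%). For E2f3 it was 23 of 27 in Rb-deficient and 14 of 20 in control crypt (70.5% and 62.8%). An E-box within 50 bp was found for 3 of 11 best Myc sites in Rb-deficient crypt, at Eif4g2, Eif4b and Eif2c2, where all genes gave 26.9%. In control crypt it was 3 of 18, at Eif4g2, Eif4h and Eif2ak4, where all genes gave 3.61%. Windows of 101 bp at all start sites held an E-box in 2.69%. Eif2ak4 and 3 further control crypt members (Eif2b2, Eif3i and Eif4g1) had a Myc site within 1 kb of a non-coding start and none within 1 kb of a coding one. The best site of Eif4g2 in control crypt also lay far from a coding start, at 3602 bp, though a further site lay near one.

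**Figure D5:**
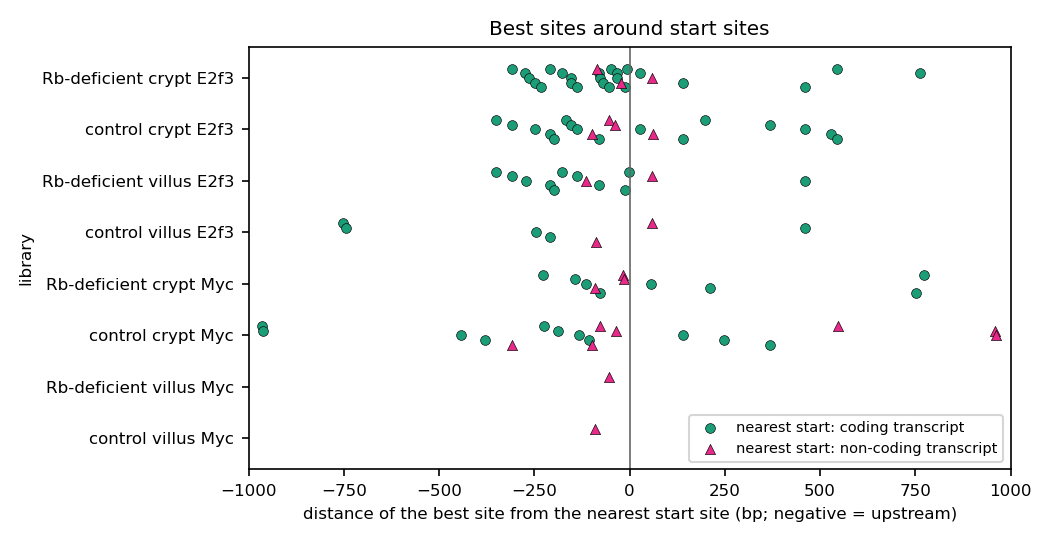
Distance in bp of each member's best site from the nearest start site of the gene (negative upstream) in each library; circles are sites nearest to the start of a coding transcript, triangles those nearest to a non-coding one, and points are spread vertically only to separate them. E2f3 sites crowd just upstream of the start, and 7 of the 18 control crypt Myc sites are triangles.

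In the same cells, sites of both factors were rarer than sites of a single factor, either E2f3 or Myc, among members and all genes alike. With both antibodies in the same cells, 7 members had a site in Rb-deficient crypt (5.43% of all genes), 8 in control crypt (7.39%) and 1 in each villus (0.487% in Rb-deficient and 0.608% in control villus). A Myc site without an E2f3 site was found at 4 members in Rb-deficient crypt (4.16%) and 10 in control crypt (14.3%), and an E2f3 site without a Myc site at 20 in Rb-deficient (15.7%) and 12 in control crypt (8.36%). In villi no member had a Myc site alone (0.116% of all genes in Rb-deficient and 0.433% in control villus), and 12 in Rb-deficient (12.5%) and 6 in control villus (4.22%) had an E2f3 site alone. The best sites of the factors lay within 250 bp at 4 of the 7 in Rb-deficient crypt (Eif2c2, Eif3f, Eif4g1 and Eif4g2, 7 to 11 bp apart), where genes with both gave 65.7%. In control crypt they did at 4 of 8 (Eif2b3, Eif3k, Eif4g1 and Eif4g2), where genes with both gave 60%. At Eif2c2 the Myc site of Rb-deficient crypt fell at the E-box shown above and the E2f3 site 11 bp further, on GCGGGA in the same intron. Over all libraries 17 members had a site of each factor somewhere (12.0% of all genes). No site of either was found at 21 of the 58, 36.2%, against 61.8% of all genes.

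Other gene families of protein synthesis had shares of the same order. In Rb-deficient and control crypt, E2f3 sites were found at 37.0% and 28.4% of 81 cytosolic ribosomal protein genes, and at 45.9% and 35.1% of 37 aminoacyl-tRNA synthetase genes, beside the 46.6% and 34.5% of initiation factor genes. In Rb-deficient and control villus the shares were 27.2% and 9.88%, and 29.7% and 16.2%, beside 22.4% and 12.1%. For Myc in Rb-deficient and control crypt they were 32.1% and 30.9%, and 29.7% and 54.1%, beside 19.0% and 31.0%. For 73 mitochondrial ribosomal protein genes, the E2f3 shares were 39.7% and 30.1% in Rb-deficient and control crypt. They were 28.8% and 9.59% in Rb-deficient and control villus, and for Myc 19.2% and 31.5% in Rb-deficient and control crypt. The interval of the initiation factor genes includes the mitochondrial values in each of these libraries. It includes those of the cytosolic ribosomal protein genes in each but Rb-deficient crypt Myc, and those of the synthetase genes in each but control crypt Myc. These differences were not tested.

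Partners of the initiation factors that carry other names were set beside them. Of 14 such genes, 6 had an E2f3 site in Rb-deficient crypt, 1 in control crypt, 3 in Rb-deficient villus and 0 in control villus, beside 21.1%, 15.7%, 13.0% and 4.83% of all genes. These are shares of 42.9%, 7.14%, 21.4% and 0% of the 14. Their exact intervals include the value over all genes in each of these libraries. For Myc, 2 of the 14 had a site in Rb-deficient crypt (9.59% of all genes) and 5 in control crypt (21.7%). Pabpc1, the poly(A)-binding protein gene, scored 28.13 and 22.66 in Rb-deficient and control crypt and 5.43 in Rb-deficient villus. Dhx29, a helicase of the scanning ribosome, scored 61.38 in Rb-deficient crypt and 15.94 in Rb-deficient villus, with no site in either control library. Of 11 elongation and release factor genes, 2 had an E2f3 site in Rb-deficient crypt, 1 in control crypt and 0 in either villus. These shares of 18.2% (2.28% to 51.8%), 9.09% (0.23% to 41.3%) and 0% (0% to 28.5%) have intervals that include the background. The mTORC1 axis is the kinase pathway that controls cap-dependent translation. Of 10 of its genes, 1, 2, 1 and 0 had an E2f3 site in Rb-deficient crypt, control crypt, Rb-deficient villus and control villus. The intervals again include the background in each library, as in control crypt with 20% (2.52% to 55.6%) against 15.7%. Rheb, the GTPase that switches mTORC1 on, scored 4.01 in Rb-deficient crypt and 2.92 in Rb-deficient villus for E2f3.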

How the data were processed

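The 8 processed files, 1 per library, list binding sites. Per the file names, they hold GEM events that overlap MACS2 peaks from merged data in which duplicates were kept. The labels do not say what was merged. Reads were aligned to mm9 with Bowtie2 2.2.1 and peaks called with MACS2 2.0.10, per the submitters' processing notes. Each site has a position and a score deposited by the authors, whose unit and normalization are not given. Deposited positions count from 0 and 1 was added, checked against the place of the E2F motif.

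Sites were assigned to genes with the NCBIM37 genome and GENCODE M1, as sites within 1 kb of the start of any transcript of a protein-coding gene (70064 start sites, 22380 genes). The best site is the highest-scored one. Sites outside this genome's sequences were not used. The assignment was tested on simulated data. Python 3.11.15, pandas 2.3.3, pysam 0.24.0 and scipy 1.17.1 were used. Shares carry exact 95% Clopper-Pearson intervals, which cover counting error only, and with 1 library per group no test was made.

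The members, gene lists and measures were chosen with earlier results of these data known. Every member is named. Values are given in full for the 10 members with the highest scores in each E2f3 library and the 5 in each Myc library, for members with sites in all 4 E2f3 libraries, and for the 5 with the highest scores found in 1 genotype only. The partner genes named were chosen after their values were seen. Alternatives were other promoter windows, the upper part of each list, equal list length, starts of coding transcripts, other motif definitions and other distances between sites.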

Additional observations from a re-analysis of the deposited data

How the results depend on the processing

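Of 168 alternatives for 40 results, 110 stayed within 1.5 times the reported count and 58 moved further. Counts of best sites that lie together held at 100 bp and 500 bp, and the counts per library held without the 4 Argonaute genes, an alternative chosen after seeing the data. In the upper-scored part of each list (50% of the sites), 12 members in Rb-deficient and 11 in control crypt had an E2f3 site. These are 20.7% and 19.0%, against 11.8% and 8.95% of all genes. In Rb-deficient and control villus 5 and 3 members had one, 8.62% and 5.17%, against 7.34% and 2.68% of all genes. Members with Myc sites numbered 7 and 10 in Rb-deficient and control crypt (4.76% and 12.1% of all genes) and 0 in Rb-deficient villus (0.326%). Members in Rb-deficient E2f3 libraries only were then 3 in crypt and 2 in villus (0 in control villus only). Those in crypt and not villus were 8 for E2f3 in each genotype (1 and 0 the other way in Rb-deficient and control mice) and 9 for Myc in control mice, and 1 was in control villus Myc only. At equal list length the E2f3 members numbered 6, 6, 5 and 7 in Rb-deficient crypt, control crypt, Rb-deficient villus and control villus; 1 was in Rb-deficient and 1 in control crypt only, and 2 in Rb-deficient and 4 in control villus only. Between crypt and villus, 2 were in crypt only and 1 in villus only in Rb-deficient mice, and 1 and 2 in control mice. With Myc lists of equal length each had 1 member (0.541% to 1.18% of all genes by library), and 0 were in 1 library only. Within 5 kb of a start, Myc members numbered 17 and 39 in Rb-deficient and control crypt (22.8% and 57.1% of all genes). In Rb-deficient and control villus they numbered 3 and 4 (2.68% and 4.47%). Of these Myc members, 2 were in Rb-deficient crypt only, 24 in control crypt only and 1 in control villus only. There were 35 in control crypt but not villus, and 1 member had E2f3 in Rb-deficient villus but not crypt. Within 500 bp, 3 Myc members were in Rb-deficient and 7 in control crypt only, 2 E2f3 members in Rb-deficient villus but not crypt, 0 in control villus only against either library, and 1 best Myc site of Rb-deficient crypt had an E-box. With starts of coding transcripts alone, 0 members had a Myc site in either villus. An E2F motif within 250 bp was at 12 members in Rb-deficient crypt, an E-box within 250 bp at 5 in each crypt, the E2F core within 50 bp at 25, 17, 12 and 5 in the same order of E2f3 libraries, and CANNTG at 8 control crypt Myc sites. By construction, fewer sites can only lower the number of members with a site in a library, and a wider window can only raise it. A shorter motif or a wider motif window can likewise only raise the motif counts. Counts in 1 library only, given here without a share of all genes, are not fixed this way and moved in both directions. No paired analysis was possible because each group has 1 library. Depth is unknown, and a member without a site may lie below the callers' threshold.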

Other observations

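Sites inside the members' genes but more than 1 kb from any start site were also counted. For E2f3 there were 24 such sites in 15 members in Rb-deficient crypt, 37 in 21 in control crypt, 11 in 8 in Rb-deficient villus and 10 in 8 in control villus. For Myc there were 40 in 22 members in Rb-deficient crypt and 170 in 40 in control crypt. In Rb-deficient villus there were 6 in 5 members and in control villus 9 in 7. No share over all protein-coding genes stands beside these counts, and the lists differ in length. They are therefore not read as a trait of the members.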
